A study of Mus musculus with 2 samples.

Results

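The activins, their relative Gdf11, the proteins that bind them and their receptors were followed in this kidney study as 10 genes, chosen by name from the 31053 genes of the count matrices: the ligand subunits Inhba and Inhbb, the inhibin subunit Inha, the ligand Gdf11, the binding proteins Fst, Fstl1 and Fstl3, and the receptors Acvr1b, Acvr2a and Acvr2b. All 10 were found. Single kidney cells were profiled by 3' tag sequencing in 1 library from wild type mice and 1 library from Kif3aΔTub mice, both aged 5 weeks. Kif3aΔTub is labelled as the knockout and the disease group, and Kif3a encodes a motor subunit needed to build the primary cilium. The promoter that drives the deletion and the number of mice behind each library were not given in the sources used here, and the labels say only that a single kidney was taken from each mouse.

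Activins are dimers of inhibin beta subunits, and the products of Inhba and Inhbb give activin A and activin B. Pairing of a beta subunit with the alpha subunit from Inha gives inhibins, which oppose activins. Activins and Gdf11 bind the type II receptors Acvr2a and Acvr2b, which recruit the type I receptor Acvr1b and signal through Smad2 and Smad3, while follistatin (Fst) and Fstl3 bind the ligands outside the cell and block them. Fstl1 is a secreted glycoprotein related to follistatin by sequence. Circulating activins and Gdf11 are known for their part in muscle wasting, and the series title names muscle wasting in chronic kidney disease.

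The filters kept 4317 wild type and 7066 Kif3aΔTub cells. A cell held a median of 7771 UMIs (counted RNA molecules) in wild type and 7799 in Kif3aΔTub, and the libraries held 42468386 and 79060495 in all. Mitochondrial UMIs made up a median of 26.8% and 7.54% of a cell, and proximal tubule cells made up 68.4% and 13.6% of the libraries. The libraries shared 17 barcodes among the kept cells. Levels are given as CPM, the UMIs of a gene in every 1000000 UMIs of a cell class, each with a 95% interval that covers counting error only. With 1 library per genotype there is no replicate check, no test was run, and genotype cannot be told apart from the library. A gene was called higher or lower in a class at a 2-fold or larger ratio with at least 20 UMIs over both libraries, which is a rule of size and not a test, and 7 named classes with at least 50 cells in each library were compared. Cycling cells (76 and 158) also reached 50 but were left out, since they are a state that cells of several types share. Kif3a itself stood at 10.3 and 12.2 CPM, but a 3' tag can lie outside the deleted part, so this checks nothing.

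The ligand genes differ in the base composition just upstream of their start sites, which is why the 3 sequences are shown here. The 250 bases before the start, from RefSeq on build GRCm38.p6, are given 5′ to 3′ on the gene's strand with every CG dinucleotide in capitals. Inhba (chr13:16011601-16011850, plus strand) had 3 of them, Inhbb (chr1:119422249-119422498, minus strand) had 21 and Gdf11 (chr10:128891719-128891968, minus strand) had 33.
Inhba: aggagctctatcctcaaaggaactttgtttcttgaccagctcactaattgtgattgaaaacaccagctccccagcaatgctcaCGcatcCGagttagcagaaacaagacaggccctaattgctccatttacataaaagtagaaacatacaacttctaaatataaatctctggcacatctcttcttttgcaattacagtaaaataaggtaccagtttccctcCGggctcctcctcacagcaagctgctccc
Inhbb: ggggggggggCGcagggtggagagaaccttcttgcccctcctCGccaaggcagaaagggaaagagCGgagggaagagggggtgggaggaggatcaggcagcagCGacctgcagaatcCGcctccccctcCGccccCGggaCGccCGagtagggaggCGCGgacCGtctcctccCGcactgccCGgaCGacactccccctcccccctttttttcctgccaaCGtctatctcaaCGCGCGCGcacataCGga
Gdf11: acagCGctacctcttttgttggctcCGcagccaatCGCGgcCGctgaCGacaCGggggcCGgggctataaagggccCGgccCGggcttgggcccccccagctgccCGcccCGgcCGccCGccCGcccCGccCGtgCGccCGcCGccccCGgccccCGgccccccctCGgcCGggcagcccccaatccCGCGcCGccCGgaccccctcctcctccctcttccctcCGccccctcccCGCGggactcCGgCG
Among 32851 windows of the same length the median was 6, 92.1% held at least 1 and 4.03% held as many as Gdf11. Of the 10 genes 9 were matched to a window, all but Fst, and 7 of these were above the median, with the largest number, 49, upstream of Acvr2a. No measurement in these libraries bears on the promoters themselves.

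**Figure D1:**
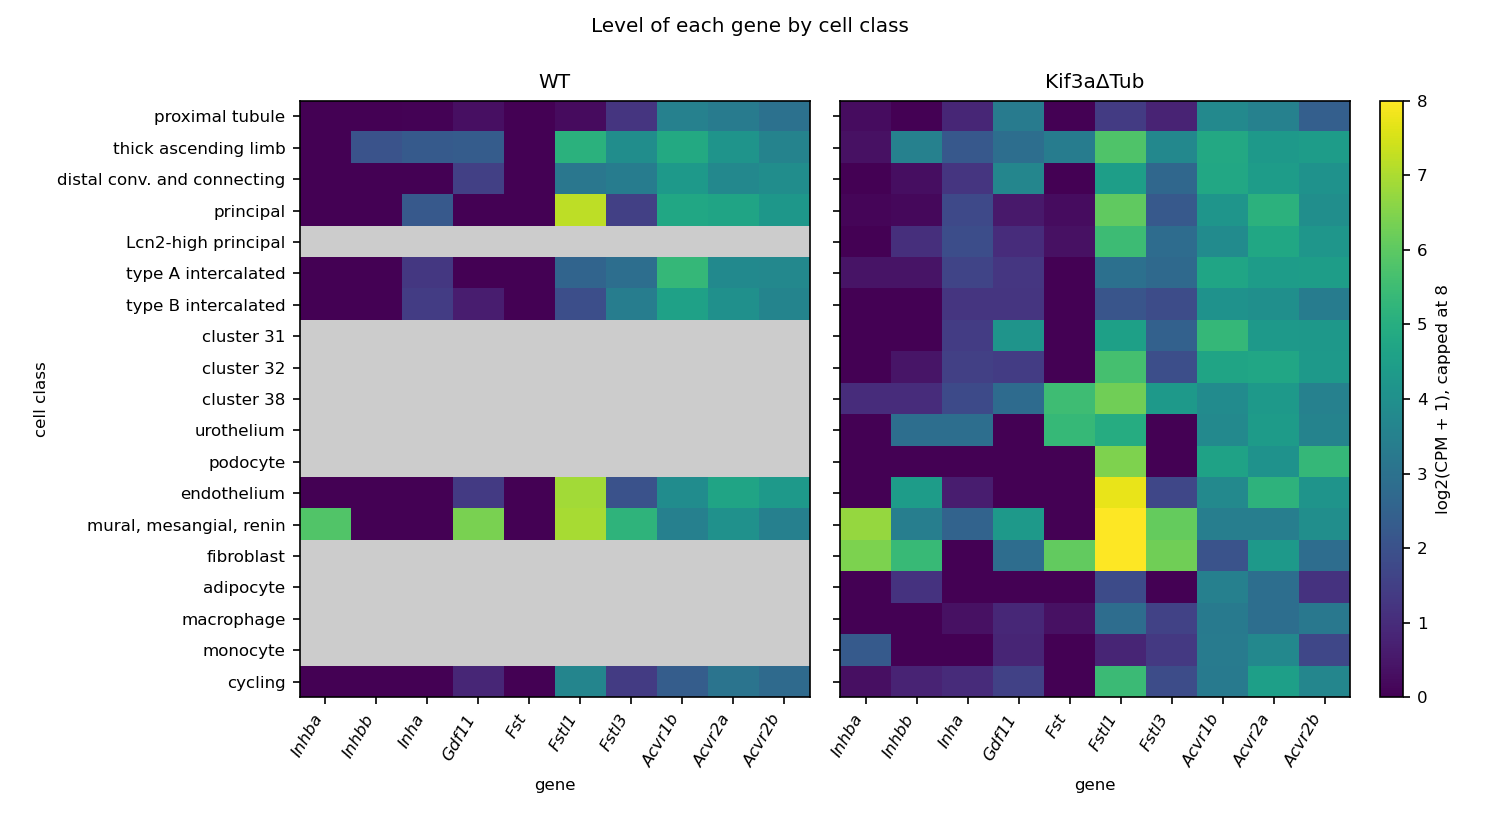
Level of each of the 10 genes (columns) in the main cell classes (rows) as log2(CPM + 1), capped at 8, in the wild type (left) and Kif3aΔTub (right) libraries. Grey marks classes with fewer than 20 cells. Inhba is brightest in mural and fibroblast cells, while the 3 receptor columns on the right of each panel are coloured in nearly every class.

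In the wild type library Inhba was detected in 1 class, that of mural, mesangial and renin cells, the contractile cells of vessels and glomeruli. The gene lies at chr13:16011851-16031621 on the plus strand of GRCm38, the build of every whole-gene position given here. All 11 of its wild type UMIs came from 10 of the 48 cells of that class, at 56.4 (28.2 to 101) CPM. In the Kif3aΔTub library 22 UMIs came from 16 of 37 such cells, at 106 (66.4 to 160) CPM, and the intervals overlapped. The log2 ratio within the class was 0.88 (-0.20 to 2.10), and the class was too small to be compared. The Kif3aΔTub level was 42.0 CPM with a mitochondrial limit of 25% and 52.2 with doublets kept.

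Fibroblasts were the other main source of Inhba in the Kif3aΔTub library, and wild type had no cell of this class. Of 27 such cells 12 held 27 Inhba UMIs, or 84.7 (55.8 to 123) CPM. These were 42.9% (30.5 to 56.0) of the 63 Inhba UMIs of that library. The 12 cells held 49.8% of all UMIs of the class. They held all 42 UMIs of Rgs5, a pericyte gene, and 0 of 21 of Lum, a fibroblast matrix gene. Of other fibroblast genes they held 23.8% of the UMIs of Pdgfra, 34.1% of Dcn, 39.5% of Mfap5 and 55.9% of Col1a1. They also held 57.9% of those of Acta2 and 52.9% of Pdgfrb. Of these genes only Rgs5 and Lum lay wholly on 1 side, and whether the 12 cells are a separate type was not tested. At a clustering resolution of 1 no cluster was named fibroblast, and 64 Kif3aΔTub cells named mural, mesangial and renin held 77.8% of the library's Inhba UMIs, so the split between these sources depends on the clustering. Monocytes, with 5 UMIs in 4 of 240 cells, were the next largest source. As a reference for free RNA, 0 of 687 macrophages had an Inhba UMI, at a median of 4250 UMIs per cell against 10030 in fibroblasts.

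Inhbb, which gives activin B and lies at chr1:119415465-119422248 on the minus strand, was in wild type detected in 1 class, the thick ascending limb, the salt-reabsorbing segment marked by Umod and Slc12a1. All 10 wild type UMIs were there, 1 in each of 10 of 340 cells, at 3.13 (1.503 to 5.76) CPM. In Kif3aΔTub the limb held 75 UMIs in 57 of 587 cells, at 10.4 (8.15 to 12.99) CPM. The log2 ratio was 1.66 (0.77 to 2.84), the intervals of the levels did not overlap, and the median of all genes in that class was itself 0.48. The share of all genes called higher in this class was 23.6%, and 4.68% were called lower. Most wild type limb cells formed 1 cluster and most Kif3aΔTub limb cells another, and the median mitochondrial share of the class was 34.3% and 7.24%, whose part in the result was not tested. With totals that leave out mitochondrial genes the log2 ratio was 1.21. A mitochondrial limit of 25% left no Inhbb UMI in the wild type limb.

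Markers of the macula densa, the sensor cells of this segment, were sparse in the limb class and nearly absent from limb cells with Inhbb. Of 5 markers (Nos1, Avpr1a, Pappa2, Robo2 and Ptgs2), only Pappa2 was detected in the 57 Kif3aΔTub cells with Inhbb, with 2 UMIs, and none was detected in the 10 wild type cells. The 57 cells held 15.96% of the UMIs of their class and 0 of its 30 Nos1 UMIs. Of the limb cells deep enough to be thinned to 2000 UMIs, 0.323% in wild type and 2.30% in Kif3aΔTub then had an Inhbb UMI. The wild type share rests on very few cells. Over all limb cells at full depth, which is a larger set, the shares were 2.94% and 9.71%. Proximal tubule cells, as a reference, had 0 Inhbb UMIs in 2952 wild type and 963 Kif3aΔTub cells.

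Endothelium was a source of Inhbb in the Kif3aΔTub library. The 155 wild type endothelial cells held 0 UMIs, and the 474 Kif3aΔTub cells held 36 in 24 cells, at 20.5 (14.4 to 28.4) CPM. With wild type set at 3 counts that is 4.43-fold higher, a value that leaves out the counting error of the 36 UMIs. In this class 4.96% of all genes were called higher and 3.61% lower, and the median of all genes was 0.02. Of the 36 UMIs, 33 lay in the cluster led by Tm4sf1, Sox17 and Plvap, at 31.7 (21.8 to 44.6) CPM in 246 cells, where 64 wild type cells had none. Median mitochondrial shares of the class were 5.86% and 4.00%. The cluster led by Plat, Emcn and Kdr held 3 in 228 cells. Cells with Inhbb held 7.69% of all UMIs of the class. They held 20.6% of the UMIs of Plvap, a gene of fenestrated capillaries, 16.3% of those of Gja5, an arterial gene, 7.97% of those of Sox17 and 0.732% of those of Ehd3, a gene of glomerular endothelium. Class totals in wild type and Kif3aΔTub were 132 and 1010 for Plvap, 38 and 221 for Gja5, and 811 and 1129 for Sox17. For Ehd3 they were 1109 and 2734, and for all genes 648776 and 1756215. The part of this makeup in the result was not tested. Fibroblasts added 13 UMIs, 6 of them in 1 cell, Lcn2-high principal cells 15 and urothelium 7.

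**Figure D2:**
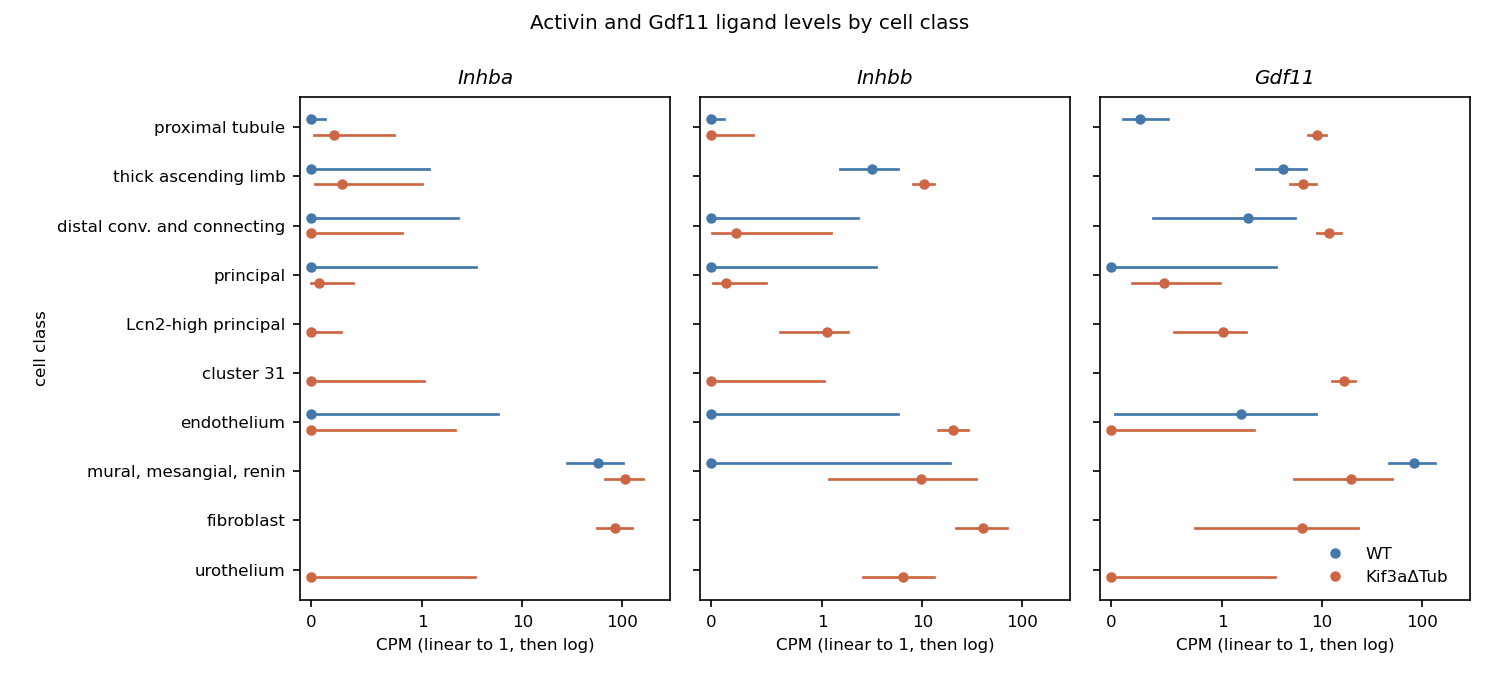
Levels of Inhba, Inhbb and Gdf11 in 10 cell classes in CPM (axis linear to 1, then logarithmic), with points for the wild type and Kif3aΔTub libraries and bars for 95% Poisson intervals. Classes with fewer than 20 cells in a library have no point. Inhbb stands at 3.13 and 10.4 CPM in the thick ascending limb, and Gdf11 at 0.263 and 8.94 CPM in proximal tubule.

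Inha, at chr1:75507077-75510366 on the plus strand, was sparse in every class. It had 23 wild type and 156 Kif3aΔTub UMIs and never more than 2 in a cell. In the thick ascending limb it stood at 3.76 (1.94 to 6.57) and 3.59 (2.35 to 5.26) CPM, with a log2 ratio of -0.10 (-1.10 to 1.06). Principal cells of the collecting duct had 3.74 (1.02 to 9.59) and 2.37 (1.65 to 3.30) CPM. Proximal tubule was lower, at 0.0329 (0.00083 to 0.183) and 0.822 (0.355 to 1.62) CPM. The wild type value is 1 UMI, under the level of 3 counts in that class, 0.0986 CPM. The proximal tubule intervals did not overlap those of the thick ascending limb in either library. Neighbouring classes in the order of Inha levels had overlapping intervals in both libraries. With counts this sparse that says nothing about classes further apart.

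Gdf11 was highest in wild type in mural, mesangial and renin cells, among classes with at least 20 cells, and it was called higher in 2 tubule classes of Kif3aΔTub. It lies at chr10:128882295-128891718 on the minus strand. In that class wild type had 16 UMIs in 11 of 48 cells, or 82.1 (46.9 to 133) CPM, against 4 UMIs in 3 of 37 Kif3aΔTub cells, or 19.3 (5.25 to 49.3), and without the cell that held 2 of these 4 the level was 9.97. The 11 wild type cells held 75.6% of the class's UMIs of Ren1, the renin gene, with 25.4% of all its UMIs, while the 3 Kif3aΔTub cells held 15.1% of Ren1 with 12.7% of all UMIs. Ren1 itself had 864 UMIs in the wild type class and 279 in the Kif3aΔTub class, and its part in the result was not tested. The log2 ratio in this small class was -1.96 (-4.13 to -0.46).

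Proximal tubule held 8 Gdf11 UMIs in 2952 wild type cells and 87 in 963 Kif3aΔTub cells, 0.263 (0.113 to 0.518) and 8.94 (7.16 to 11.02) CPM. That is a log2 ratio of 5.01 (4.05 to 6.34) where the median of all genes was 0.22, 11.4% of genes were called higher and 4.02% lower. Of the 87 UMIs, 80 lay in 1 cluster of 557 Kif3aΔTub and 5 wild type cells, so the cells compared belong to different clusters. The distal convoluted and connecting tubule had 3 UMIs in 204 wild type cells and 53 in 376 Kif3aΔTub cells, 1.83 (0.378 to 5.36) and 11.8 (8.80 to 15.4) CPM, with a log2 ratio of 2.47 (1.06 to 5.00). Here 22.9% of genes were called higher and 3.81% lower, around a median of 0.49. The median mitochondrial share was 27.9% and 20.4% in proximal tubule and 36.4% and 11.8% in the distal class, and its part in these results was not tested. Within the 1 cluster of that segment that both libraries filled, 43 wild type cells had 0 and 375 Kif3aΔTub cells had 53, at 11.8 CPM. The few wild type cells allow a level of up to 11.3 CPM, so a difference within that cluster was barely detectable at this depth.

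In the thick ascending limb Gdf11 had a log2 ratio of 0.63 (-0.24 to 1.68), at 4.07 and 6.49 CPM, which was not called. Cluster 31, an unnamed cluster led by Hmx2 and by the intercalated cell genes Slc26a4 and Atp6v1g3 together with Klk1, held 58 Gdf11 UMIs in 32 of 107 Kif3aΔTub cells, at 16.5 (12.5 to 21.3) CPM, and 0 in 14 wild type cells. Its Kif3aΔTub cells were deep, with a median of 28586 UMIs against 7799 over the library. At least 80% of the principal cell markers were also raised in this cluster, so its identity is not settled. Principal cells had 7 UMIs in 1156 Kif3aΔTub cells. Of the proximal tubule cells deep enough to be thinned to 2000 UMIs, 0.120% in wild type and 1.08% in Kif3aΔTub then had a Gdf11 UMI, on very few cells. At full depth 3 of 687 macrophages, or 0.437%, had one, with a median of 4250 UMIs per cell against 7734 in Kif3aΔTub proximal tubule.

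**Figure D3:**
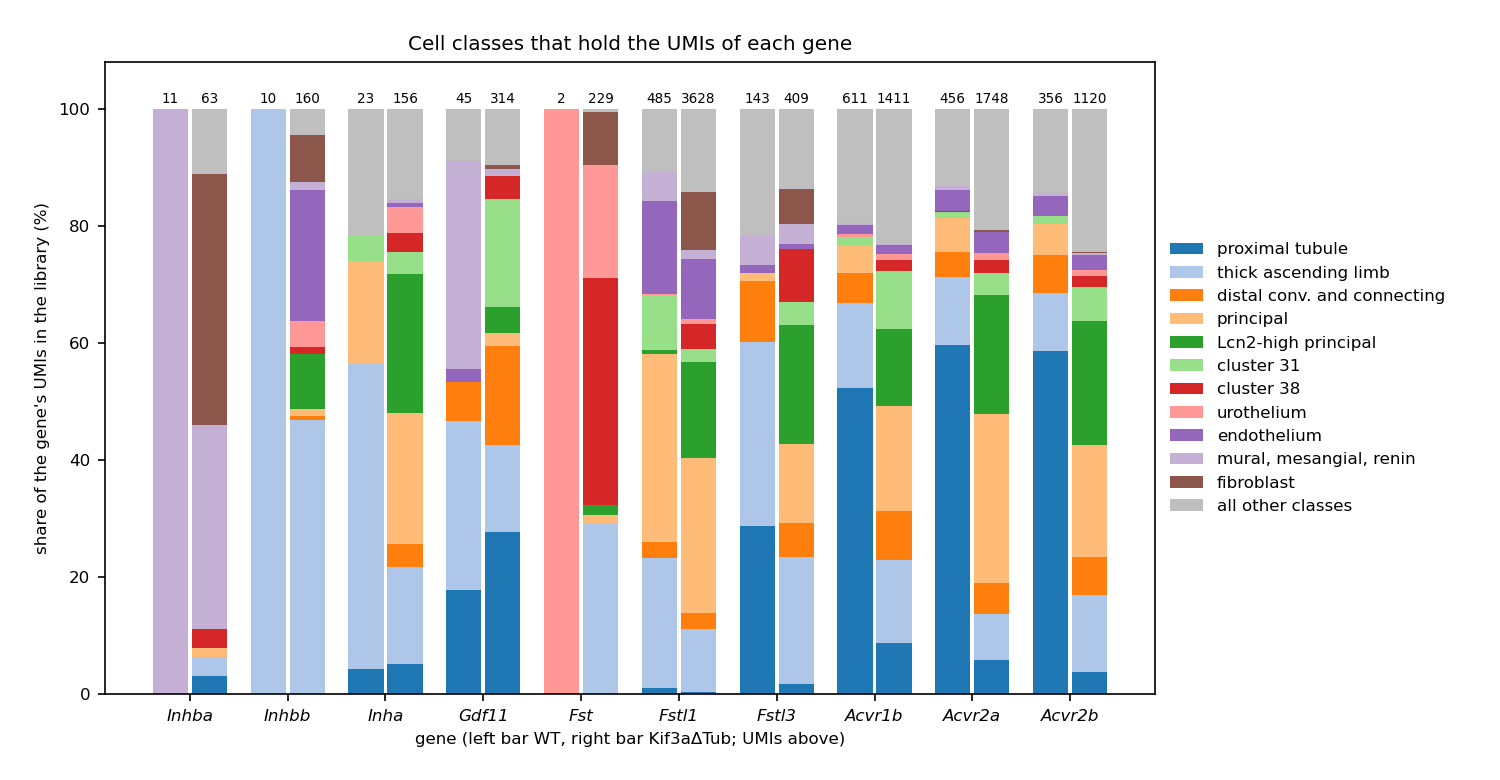
Share of each gene's UMIs (percent, vertical axis) that came from each cell class, with the wild type library on the left and Kif3aΔTub on the right of each pair and the UMI total above each bar. Proximal tubule, the lowest block, holds 52.4% of wild type and 8.79% of Kif3aΔTub Acvr1b UMIs.

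Follistatin was detected in few cells, and in 3 classes a single cell held about as many UMIs as all others or more. Fst, at chr13:114452290-114458951 on the minus strand, had 2 UMIs in wild type, both in 1 urothelial cell, and 229 in Kif3aΔTub, in 49 cells. Urothelium had the broadest detection, with 44 UMIs in 20 of 83 cells, or 40.0 (29.1 to 53.7) CPM, and no more than 8 in a cell. Cluster 38, also unnamed and led by Tagln, Acta1, Vcam1 and Vim, held 89 UMIs in 12 of 150 cells, of which 44 were in 1 cell. Fibroblasts held 21 UMIs in 5 of 27 cells. The highest of these, with 11, also held 1154 UMIs of the fat cell gene Fabp4 and 543 of Cfd.

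In the thick ascending limb 64 of 67 Fst UMIs came from 1 cell of 6304 UMIs, and without it the level was 0.415 against 9.26 CPM. That cell had no UMI of any of 7 limb markers, but 57 of Cryab and 4 of Aqp1, which are on the list of thin limb markers. Wild type had a matching barcode, with 44 Fst, 32 Cryab and 29 Aqp1 UMIs and 1 Slc12a1 UMI, which Scrublet had removed as a doublet. With doublets kept, the log2 ratio of Fst in the limb turned to -0.57, and over all cells it was 1.41 in place of 5.62, so no direction is given for Fst in the limb. In Kif3aΔTub 1 limb cell held both Inhbb and Fst.

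**Figure D4:**
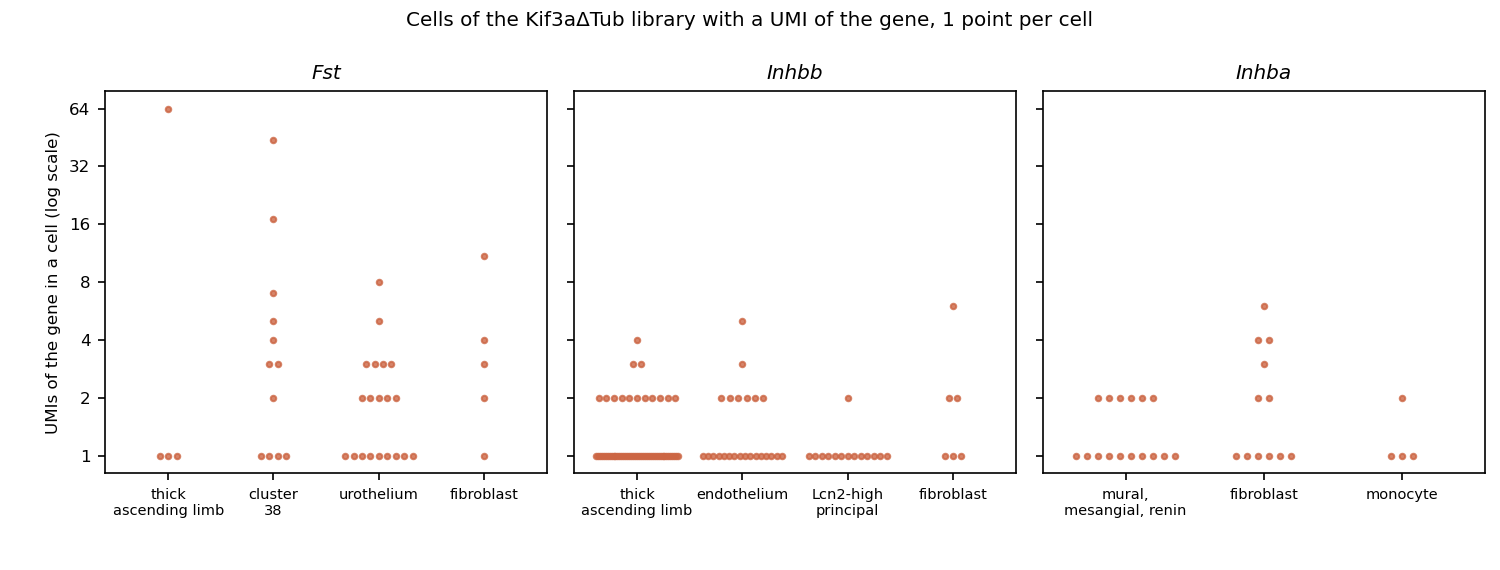
UMIs of Fst, Inhbb and Inhba in each Kif3aΔTub cell with at least 1 (logarithmic axis), by cell class, 1 point per cell. The highest Fst point, 64 UMIs, stands alone in the thick ascending limb, while Inhbb there never passes 4.

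Fstl1, at chr16:37776873-37836514 on the plus strand, was highest in fibroblasts, at 1132 (1019 to 1256) CPM in all 27 cells. In principal cells, the water- and salt-handling cells of the collecting duct, it was lower in Kif3aΔTub, at 65.1 (61.0 to 69.3) against 146 (124 to 171) CPM, a log2 ratio of -1.17 (-1.41 to -0.91). In that class 9.33% of genes were called higher and 6.1% lower, around a median of 0.00, and the median mitochondrial share was 13.9% and 7.99%. In the 1 principal cluster that both libraries filled, with 127 and 100 cells, the levels were 147 and 69.3 CPM. With the libraries clustered separately the log2 ratio was -0.95, just short of 2-fold.

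In 2 other tubule classes Fstl1 was called higher. Proximal tubule had 5 and 16 UMIs, 0.164 and 1.64 CPM, with a log2 ratio of 3.23 (1.81 to 5.13) at a level far below that of other classes. The distal convoluted and connecting tubule had 7.94 and 21.5 CPM, a log2 ratio of 1.39 (0.60 to 2.40). Within the cluster of that segment shared by both libraries it was 24.6 (10.6 to 48.4) and 21.5 (17.5 to 26.2), a log2 ratio of -0.27 (-1.23 to 1.06), and the class value was under 2-fold with a mitochondrial limit of 25% (0.59) and under each of 3 other scalings (0.88 to 0.97).

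Endothelial Fstl1 was higher in Kif3aΔTub in the same cluster that held most Inhbb. The cluster led by Tm4sf1, Sox17 and Plvap had 140 (105 to 183) and 303 (270 to 338) CPM, with a log2 ratio of 1.10 (0.69 to 1.56), and the cluster led by Plat, Emcn and Kdr stood at 88.8 (56.9 to 132) and 79.6 (60.3 to 103), with a log2 ratio of -0.17 (-0.87 to 0.59). The difference between the clusters was not tested. Over the whole class the log2 ratio was 0.83 (0.48 to 1.21), which was not called. Mural, mesangial and renin cells had 123 (78.9 to 183) and 265 (200 to 345) CPM, and thick ascending limb 33.8 (27.8 to 40.9) and 54.0 (48.8 to 59.7).

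Fstl3, at chr10:79777272-79782630 on the plus strand, was highest in the 2 classes that held most Inhba. Fibroblasts had 75.3 (48.2 to 112) CPM and mural, mesangial and renin cells 35.9 (14.4 to 74.0) and 67.4 (36.9 to 113). Fstl3 was detected in 14 of 27 fibroblasts and in 8 of the 12 with Inhba. In mural, mesangial and renin cells it was detected in 6 of 48 wild type and 9 of 37 Kif3aΔTub cells. Of those with Inhba, 1 of 10 and 6 of 16 had it. The thick ascending limb stood at 14.1 (10.3 to 18.9) and 12.3 (9.88 to 15.1) CPM. In type B intercalated cells, which secrete bicarbonate, it was called lower, with 17 and 4 UMIs and a log2 ratio of -1.71 (-3.87 to -0.22), where 7.96% of genes were called higher and 3.41% lower.

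**Figure D5:**
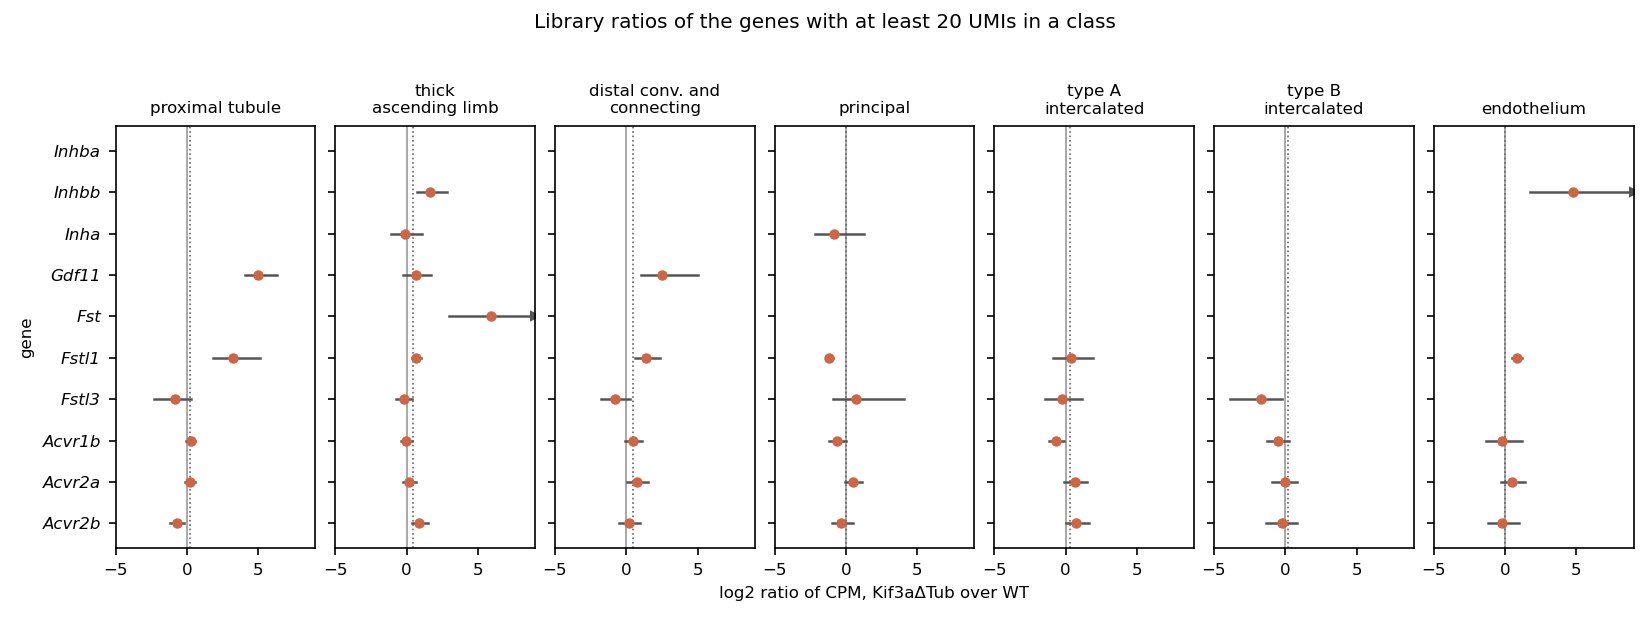
Log2 ratio of CPM, Kif3aΔTub over wild type, with exact conditional 95% intervals, for each gene with at least 20 UMIs in the 7 classes compared. The solid line marks 0 and the dotted line the median of all genes, and an arrow marks an interval with no upper limit. The receptors in the lowest 3 rows stay between -0.67 and 0.88.

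The receptors were spread over all parts of the kidney and none was called in any of the 7 classes. Between 4.96% (endothelium) and 23.6% (thick ascending limb) of all genes were called higher in these classes. Between 3.0% (type A intercalated cells) and 6.1% (principal cells) were called lower. With 3 receptors in a class, the absence of a call says little. Acvr1b, the type I receptor (chr15:101174067-101213684, plus strand), was highest in wild type, among classes with at least 20 cells, in type A intercalated cells, the acid-secreting cells, at 39.5 (29.7 to 51.4) CPM, where Kif3aΔTub had 24.9 (19.5 to 31.4), a log2 ratio of -0.67 (-1.19 to -0.13). In that class 12.7% of genes were called higher and 3.0% lower. In the thick ascending limb it stood at 27.9 and 27.5 CPM, with a log2 ratio of -0.03 (-0.39 to 0.36).

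Acvr2a (chr2:48814109-48903269, plus strand) led among named classes with at least 20 cells in endothelium and principal cells, at 24.7 and 24.3 CPM in wild type and 34.7 and 34.2 in Kif3aΔTub. Acvr2b (chr9:119402118-119434995, plus strand) had its largest ratio in the thick ascending limb, at 10.97 (7.64 to 15.3) and 20.4 (17.3 to 24.0) CPM, a log2 ratio of 0.88 (0.36 to 1.47), and in proximal tubule stood at 6.87 and 4.31, a log2 ratio of -0.66 (-1.19 to -0.19). Lcn2-high principal cells, 839 in Kif3aΔTub and 1 in wild type, had 13.6, 26.2 and 17.5 CPM of Acvr1b, Acvr2a and Acvr2b. Proximal tubule held 52.4%, 59.6% and 58.7% of the wild type UMIs of the 3 receptors and 8.79%, 5.84% and 3.75% of those of Kif3aΔTub, whose proximal cells were fewer. These shares lie below the class's share of all UMIs, which was 71.7% in wild type and 12.3% in Kif3aΔTub. Genes on the opposite strand overlap Inhba (B230303A05Rik and Gm48444), Fst (Gm47040), Fstl3 (Prss57), Acvr2a (Orc4) and Acvr2b (Gm47320), and whether strand was used in counting was not given in the sources used here.

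Over all kept cells 7 of the 10 genes were called higher and 0 lower, beside 33.8% and 9.25% of all 15940 genes with at least 20 UMIs, around a median log2 ratio of 0.62. The 7 were Inhba, Inhbb, Inha, Gdf11, Fst, Fstl1 and Acvr2a. Inhba was under 2-fold with a mitochondrial limit of 25% (0.42) and a median-of-ratios factor (0.97). When only the 7 classes were used and Kif3aΔTub levels were weighted by the wild type makeup, Fstl1 went from 2.01 to 0.37, Acvr2a from 1.04 to 0.29, and Gdf11 from 1.89 to 3.61. That sum covers 94.6% of wild type and 53.5% of Kif3aΔTub UMIs, so it changes both the weights and the classes used. The parts of these 2 changes were not separated here. Mural, mesangial and renin cells, which it leaves out, held 35.6% of the wild type Gdf11 UMIs. The direction of Acvr1b turned from 0.31 to -0.29 under a median-of-ratios factor, which moved the median of all genes by -0.60, and Acvr2a then stood at 0.44, under 2-fold. The same factor moved the median by -0.51 in the distal convoluted and connecting tubule, -0.47 in the thick ascending limb, -0.28 in type A, -0.22 in type B and -0.20 in proximal tubule, and by under 0.1 in endothelium and principal cells.

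Of 41 other genes of the pathway, 26 had at least 20 UMIs over all cells, 12 were called higher and 3 lower, beside 33.8% and 9.25% of all genes, with a median log2 ratio of 0.80. Tgif2, a repressor that binds Smads, had 10 and 543 UMIs, and Bmp1, a protease that activates ligands of this family, had 20 and 541. Acvr1c, another type I receptor, had 0 and 131 UMIs. With wild type set at 3 counts that is 23.5-fold higher, which leaves out the counting error of the 131 UMIs. In the thick ascending limb 7 of 22 were called higher and 2 lower, beside 23.6% and 4.68% of all genes, among them Bmp1, with 1 and 72 UMIs, and Pcsk6, a proprotein convertase, with 105 and 18. The median log2 ratio of the list there was 0.60, beside 0.48 over all genes. The distal convoluted and connecting tubule had 6 of 19 higher and 0 lower, beside 22.9% and 3.81% of all genes, and proximal tubule 5 of 22 and 0, beside 11.4% and 4.02%. Principal cells had 2 of 21 higher and 1 lower, beside 9.33% and 6.1%. Type A cells had 1 of 19 and 1, beside 12.7% and 3.0%, and type B cells 2 of 19 and 2, beside 7.96% and 3.41%. In endothelium 0 of 22 were called, beside 4.96% of all genes higher and 3.61% lower, so few calls would be met there in any list of this size. The inhibitory Smad6 and Smad7 had log2 ratios in endothelium of -0.84 (-1.19 to -0.47) and -0.58 (-0.82 to -0.33).

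The genes with levels most like each member were found over 32 sums of a class in a library, which share libraries and depth, as Pearson's r of log2(CPM + 1). For Inhbb they included Npy (0.80) and Bmp1 (0.76). For Gdf11 they were Atp1b2 (0.78), Obsl1 (0.75) and Ogn (0.75), and for Fst Hs6st2 (0.88), Sorcs2 (0.86) and Gm15867 (0.76). The Fst values rest in part on single cells, which held 64 of 67 Fst UMIs in the Kif3aΔTub thick ascending limb and 44 of 89 in cluster 38. Fstl1 was most like Ctgf (0.88), Dsel (0.88) and Nipa1 (0.87). Among the receptors the first was 2010315B03Rik for Acvr1b (0.91), Vezt for Acvr2a (0.93) and Enpp4 for Acvr2b (0.92). Inhba had too few UMIs for this.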

How the data were processed

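The starting point was the count matrix (UMI counts per gene and barcode) that the authors deposited for each library. Per the file headers it was written by Cell Ranger 3.1.0, while per the submitters' processing notes Cell Ranger 3.0.2, Seurat 3.1.1 and build mm10 were used. Per the labels' protocols, kidneys were dissociated with cold protease, dead cells removed and libraries made with 10x 3' chemistry.

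Barcodes with at least 500 UMIs, 200 genes and under 50% mitochondrial UMIs were kept, 4371 in wild type and 7236 in Kif3aΔTub, and Scrublet removed 54 and 170 of these. Cells were clustered with scanpy 1.11.5 (2000 variable genes per library without the members and the pathway list, 30 components, 15 neighbours, Leiden resolution 2) into 45 clusters, named from marker lists by a rule written after the clusters were seen. Clusters 11, 31, 32 and 38 stayed unnamed. The 10 members and all lists were chosen with earlier results of these data known. UMIs were summed by class and library. Levels carry exact Poisson intervals, shares Clopper-Pearson intervals and ratios exact conditional intervals, all for counting error only. Log2 ratios were computed with 0.5 UMIs added to each sum. Trimmed-mean factors came from edgeR 4.0.16. In each class up to 3 pathway genes with at least 20 UMIs and an interval without 0, and for members with at least 100 UMIs the 3 most similar genes, could be named, and some of these are left out of the text.

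Intervals and calls were tested on simulated counts. In 1 group of that test (4-fold lower, thick ascending limb) fewer intervals held the true ratio than their nominal 95% and than the limits first set, which were lowered once and then replaced by a looser binomial limit. A larger draw with every gene changed was added and met it. Gene positions came from GENCODE vM21 (GRCm38). Alternatives were another mitochondrial limit, UMI minimum, clustering, scaling or depth, doublets kept, and, added after seeing the data, the wild type class makeup and leaving out the cell with most UMIs.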

Additional observations from a re-analysis of the deposited data

Results flagged for a closer look

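Fstl1 had opposite directions in classes of the tubule, with log2 ratios of -1.17 in principal cells, 1.39 in the distal convoluted and connecting tubule and 3.23 in proximal tubule. All 3 passed 2-fold with intervals that left out 0. The difference between the classes was not tested, since each genotype has 1 library. The principal value was -1.08 within the cluster both libraries filled, while the distal value was -0.27 within its shared cluster, and the proximal value rests on 5 and 16 UMIs.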

How the results depend on the processing

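Over all kept cells the log2 ratios moved with scaling. Without mitochondrial genes they were 1.67 for Fstl1, 0.28 for Fstl3, -0.023 for Acvr1b, 0.71 for Acvr2a and 0.42 for Acvr2b. A median-of-ratios factor gave 1.29 for Gdf11, 1.40 for Fstl1, 0.014 for Fstl3, -0.29 for Acvr1b, 0.44 for Acvr2a and 0.15 for Acvr2b, and a trimmed-mean factor 1.33, 1.45, 0.057, -0.25, 0.48 and 0.20. The wild type class makeup gave 1.09 for Inha, 3.61 for Gdf11, 0.37 for Fstl1, -0.58 for Fstl3, 0.087 for Acvr1b, 0.29 for Acvr2a and -0.18 for Acvr2b. A mitochondrial limit of 25% gave 0.42 for Inhba, 6.02 for Inhbb (no wild type UMI left) and 1.08 for Fstl1. Keeping doublets gave 1.41 for Fst over all cells and -0.57 in the thick ascending limb, where 1 wild type barcode held 44 UMIs. For the other cases the cause was not tested.

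At 1.5-fold the pathway list counts became 11 higher and 1 lower in the distal convoluted and connecting tubule, 3 and 2 in endothelium, 4 and 3 in principal cells, 11 higher in the thick ascending limb, 6 higher in type A and 4 lower in type B cells. With at least 50 UMIs they became 0 in both directions in type A and in type B cells. The shares of all genes at these settings are not given here, so these counts cannot be read as results about the list. The median log2 ratio of all genes was itself 0.49 in the distal class and 0.48 in the thick ascending limb.

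The log2 ratio of Gdf11 lay between 4.598 and 5.57 in proximal tubule and between 1.97 and 2.59 in the distal class, and that of Inhbb between 1.197 and 2.94 in the thick ascending limb, over 9 alternatives each, the highest Inhbb value being the one with no wild type UMI left. For Inhbb in endothelium, with 0 wild type UMIs, the log2 ratio is set by the added 0.5 UMIs and its range says nothing about stability. Fstl1 lay between -1.37 and -0.95 in principal cells, the upper value under 2-fold with the libraries clustered separately, and between 0.59 and 2.53 in the distal class. Inhba in Kif3aΔTub mural cells went from 106 to 42.0 CPM under the 25% limit and 52.2 with doublets kept, where a cluster of 59 and of 149 Kif3aΔTub cells also took that name. No paired analysis was possible because each genotype has 1 library. The floor was set at 3 counts of a class, which is 0.940 CPM in the wild type thick ascending limb, 4.62 in endothelium and 15.4 in mural cells. Levels below the floor rest on fewer than 3 UMIs and are uncertain where they are given.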
